A study of Mus musculus with 56 samples.

Results

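The 7 genes described here encode the mouse inhibitors of cyclin-dependent kinases, the proteins that hold back the cell cycle. They were chosen by symbol, as the rows of the deposited table whose Ensembl identifiers map to Cdkn1a, Cdkn1b and Cdkn1c (the CIP/KIP family) and to Cdkn2a, Cdkn2b, Cdkn2c and Cdkn2d (the INK4 family), and all 7 were found among 24410 genes. The cells came from 3 colon tumors, pooled, of 1 male ApcMin/+ mouse, which carries a truncating allele of the Wnt pathway gene Apc in every cell. The mouse drank 2% dextran sulfate sodium, which injures the colonic lining, for 5 days from 10 weeks of age, and the tumors were taken at 12 weeks. Live cells with Epcam and Cd24 and without Cd31 and Cd45 were sorted singly, cDNA was made by Bead-seq, and libraries were made from cDNAs that were positive for the stem cell receptor gene Lgr5 by PCR with 32 cycles. The labels named no other group and no control tissue, so everything below describes differences between cells of a single animal, without significance tests.

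Progress from G1 into S phase depends on cyclin D with CDK4 or CDK6 and then cyclin E with CDK2, which phosphorylate RB proteins and release E2F transcription factors to switch on replication genes such as Mcm5. INK4 proteins bind CDK4 and CDK6 alone and displace cyclin D, whereas CIP/KIP proteins bind whole cyclin-CDK complexes, chiefly those of CDK2. In the intestine, Cdkn1a (p21) is a target of p53, Cdkn1b (p27) is raised in cells that leave the cycle, and Cdkn1c (p57), an imprinted gene, marks resting stem cells in several tissues. Mki67 is present in cycling cells and falls in resting ones, and Prox1 encodes a homeobox factor of intestinal tumor cells that the title of the series links to quiescence and chemoresistance.

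The 56 libraries held 6 pairs whose profiles had a Pearson's r from 0.957 to 0.992, against 0.782 for the next most similar pair. Each of the 6 was averaged as 1 cell, which left 50 cells. TPM values give the length-corrected share of a library's transcripts that a gene takes. From 1 TPM upward a gene counts as seen, and the median cell had 5903 genes seen. The 50 cells all had Epcam and Cd24a, and 0 had Pecam1 (Cd31) or Ptprc (Cd45), while Lgr5 was seen in 38. The RNA of the sorted surface markers thus went the way of the sort, but RNA is not surface protein. In 1 cell 85.1% of TPM came from the transcript Gm10925, 1316 genes were seen and none of the 7 inhibitors was above 0. In another cell 34.98% of TPM came from the Paneth cell genes Defa24, Defa17 and Lyz1, with Cdkn1a at 96.6 TPM and Cdkn2b at 6.56 TPM as its inhibitors. Without either cell no share of cells left its interval and no correlation moved by more than 0.15. Leaving 1 cell out of 50 could hardly move a value that far, so this says little about the effect of these cells. TPM keep no read depth, so a value of 0 is read only as listed at 0, and a Clopper-Pearson interval at 95% covers counting error only.

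Bases upstream of the start sites are shown first, because the inhibitors are set below against the replication gene Mcm5 and against p53 target genes. The windows came from RefSeq on GRCm38.p6. They gave 9 windows of 250 bases upstream of a start for 6 of the 7 genes, with Cdkn1c not among them, and at most 200 bases outside annotated exons are printed. The motifs searched on both strands were the E2F letters TTTCCCGC, TTTCGCGC, TTTGCCGC and TTTGGCGC, the GC box GGGCGG and the p53 half-site. An E2F match occurred in 1.86% of all 32851 windows, a GC box in 32.7% and a p53 half-site in 7.13%, and capitals mark the matches. The Mcm5 bases are chr8:75109309-75109508, plus strand. Those of Cdkn2c are chr4:109665373-109665572, minus strand, at its inner start, since the window of its outer start lies in an exon. Those of Cdkn2a are chr4:89294654-89294853, minus strand, at the start of the Arf transcript. Those of Cdkn1a are chr17:29090776-29090975, plus strand, and those of Cdkn2b are chr4:89311040-89311239, minus strand.
Mcm5: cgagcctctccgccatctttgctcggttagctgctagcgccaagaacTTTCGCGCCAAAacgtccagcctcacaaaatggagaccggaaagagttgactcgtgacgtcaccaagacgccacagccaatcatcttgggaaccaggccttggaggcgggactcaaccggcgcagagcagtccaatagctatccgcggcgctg
Cdkn2c: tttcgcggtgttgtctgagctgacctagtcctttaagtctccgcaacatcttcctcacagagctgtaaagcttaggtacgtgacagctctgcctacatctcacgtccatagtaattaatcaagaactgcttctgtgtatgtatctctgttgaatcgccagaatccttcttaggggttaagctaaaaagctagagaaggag
Cdkn2a: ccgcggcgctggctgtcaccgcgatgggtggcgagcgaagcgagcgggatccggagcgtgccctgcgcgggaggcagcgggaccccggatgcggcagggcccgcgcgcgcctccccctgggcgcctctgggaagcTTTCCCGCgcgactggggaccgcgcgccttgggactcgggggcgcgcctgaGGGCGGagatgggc
Cdkn1a: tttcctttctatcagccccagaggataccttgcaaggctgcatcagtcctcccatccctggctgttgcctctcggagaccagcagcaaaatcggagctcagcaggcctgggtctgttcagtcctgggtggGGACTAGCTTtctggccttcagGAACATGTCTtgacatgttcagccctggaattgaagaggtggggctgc
Cdkn2b: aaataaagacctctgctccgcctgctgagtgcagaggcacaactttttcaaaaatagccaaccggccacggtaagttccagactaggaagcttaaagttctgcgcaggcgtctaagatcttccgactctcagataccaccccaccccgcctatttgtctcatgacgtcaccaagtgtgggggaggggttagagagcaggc
The Mcm5 window held 2 E2F matches that overlap, at 153 and 149 bases before the start. Of the 9 inhibitor windows, 1 held an E2F match, that of the Arf start of Cdkn2a, 99 bases before it. The printed Cdkn1a window held 2 p53 half-site matches, at 73 and 51 bases before the start. The window of another Cdkn1a start lies in an exon and held no p53 half-site. Such matches lay in 2 of the 9 windows, the printed Cdkn1a window and that of Cdkn2d. GC boxes lay in 5 of the 9 windows, those of 5 genes, and the windows printed for Cdkn2b and Cdkn2c had no match to any of the 3 motifs. A match is a run of letters and not a measured binding site.

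The 7 genes differed widely in how many cells carried them and how high they stood. In order of frequency, Cdkn1a was seen in 43 cells, Cdkn1b in 30, Cdkn2b in 21, Cdkn1c in 17, Cdkn2d in 13, Cdkn2c in 5 and Cdkn2a in 0. The intervals of any 2 neighbours in this order overlap. Of the 7 genes, 5 were seen in at least 20% of cells, beside 37.6% of all genes in the table.

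**Figure D1:**
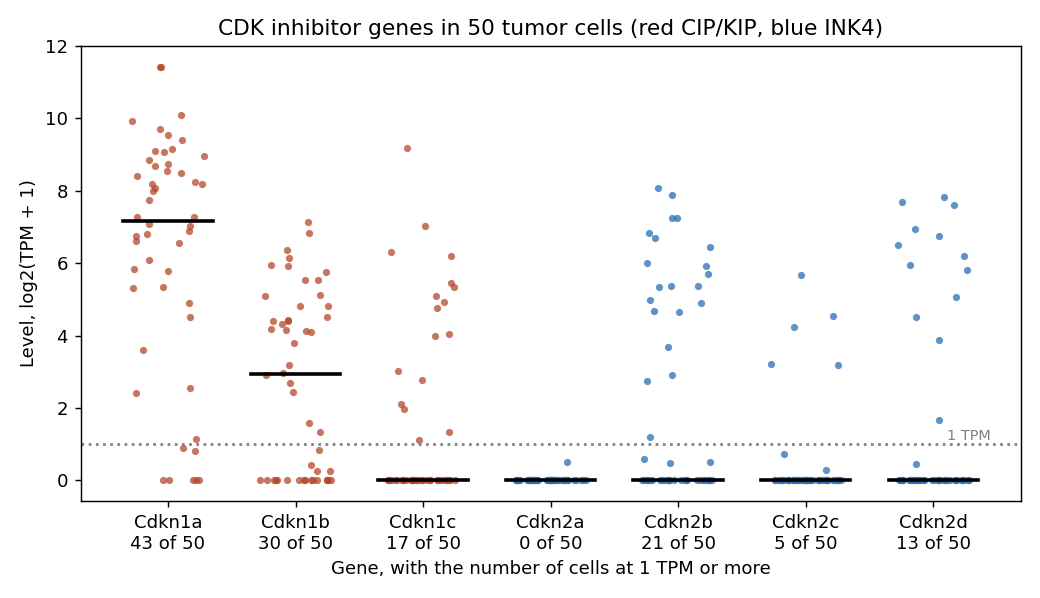
Level of each inhibitor gene in each of the 50 cells, as log2(TPM + 1), with CIP/KIP genes in red, INK4 genes in blue, a bar at the median and a dotted line at 1 TPM. Cdkn1a stands highest, with a median of 144 TPM, Cdkn2a lies below the line in every cell, and the other genes split into cells near 0 and cells well above the line.

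Cdkn1a (ENSMUSG00000023067, GRCm38 chr17:29090976-29100727, plus strand) was the leading inhibitor of these tumor cells. Its share of cells was 86% (interval 73.3% to 94.2%), with a lowest level of 0, a median of 144 TPM, quartiles at 31.4 and 424 TPM and a highest level of 2762 TPM. On the log2(TPM + 1) scale its mean was 6.39 (SD 3.28, 50 cells). A level of 100 TPM or more was reached in 30 cells, and the 3 highest cells held 37.9% of its summed TPM. In 34 cells Cdkn1a was the highest of the 7 inhibitors, and its median share of their summed TPM was 80.1%. The annotated transcript AC167363.2 overlaps the gene, and the sources used here do not say whether reads were counted by strand.

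Cdkn1b (ENSMUSG00000003031, chr6:134920401-134925513, plus strand) was common but low. The gene was present in 60% of cells (45.2% to 73.6%), with a median of 6.69 TPM over all cells and of 20.5 TPM where it was seen. Its highest levels were 141, 113 and 82.0 TPM. Cdkn1b was the highest inhibitor in 6 cells.

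Cdkn1c (ENSMUSG00000037664, chr7:143458339-143461050, minus strand, overlapped by Gm44732) was rare and uneven. Its share of cells was 34% (21.2% to 48.8%), with a median of 0, and of 26.4 TPM where it was seen. A single cell reached 577 TPM, followed by 131 and 78.2 TPM, and these 3 cells held 72.6% of its summed TPM. The cell with the highest Cdkn1c was also the cell with the highest Cdkn1b, and it had Cdkn1a at 497 TPM, Cdkn2d at 32.5 TPM, Prox1 at 41.1 TPM and Mki67 and Mcm5 at 0.

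Cdkn2a (ENSMUSG00000044303, chr4:89274471-89294653, minus strand), which encodes both p16INK4A and, from its upstream start, the p53 activator ARF, was seen in 0 of 50 cells, which an exact interval limits to a share of 7.11%. It was listed at 0 in 49 cells and stood at 0.43 TPM in 1. The gene lies next to Cdkn2b, and other neighbours were present: Klhl9 was seen in 48 cells and Mtap in 41, while Dmrta1 was seen in 0.

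Cdkn2b (ENSMUSG00000073802, chr4:89306299-89311039, minus strand), which encodes p15INK4B, a target of TGF-beta signaling, was the most frequent INK4 gene. Its share of cells was 42% (28.2% to 56.8%), with a median of 40.8 TPM where it was seen and highest levels of 267, 236 and 152 TPM. Of its 21 cells, 18 were at 10 TPM or more.

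Cdkn2d (ENSMUSG00000096472, chr9:21288410-21291407, minus strand), which encodes p19INK4D, was seen in 26% of cells (14.6% to 40.3%). Where it was seen its median was 72.9 TPM, and its highest levels were 226, 205 and 194 TPM. It was at 10 TPM or more in 12 of its 13 cells, so it was rare but rarely low.

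Cdkn2c (ENSMUSG00000028551, chr4:109660876-109667189, minus strand), which encodes p18INK4C, was seen in 10% of cells (3.33% to 21.8%). Its 5 levels were 49.8, 22.4, 18.1, 8.35 and 8.09 TPM, so it was never the highest inhibitor of a cell.

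In the 6 averaged library pairs the inhibitors were called alike. These pairs were chosen because their whole profiles were alike, so agreement within them is built in. Of 42 pairs of values, 16 were seen in both libraries and 1 in a single library, at 1.65 TPM. Where both saw the gene, the median difference was 0.39 on the log2(TPM + 1) scale and the largest 1.09, for Cdkn1a at 918 and 431 TPM. A step from 10 to 100 TPM is larger than any difference within these pairs, but the pairs do not show how reliably a gene is caught in separate cells.

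Most cells carried several inhibitors together. The numbers of cells with 0, 1, 2, 3, 4 and 5 inhibitors were 2, 6, 17, 14, 8 and 3, with a median of 2.5 (SD 1.197) and no cell with more than 5. A CIP/KIP gene was seen in 48 cells and an INK4 gene in 32, and all 32 cells with an INK4 gene also had a CIP/KIP gene, where the product of the 2 shares gives 30.7. The 0 cells with INK4 genes alone thus differ by under 2 cells from that product. The median summed level was 191 TPM for CIP/KIP genes and 19.9 TPM for INK4 genes. The commonest combinations were Cdkn1a with Cdkn2b, in 7 cells, and Cdkn1a alone, Cdkn1a with Cdkn1b, all 3 CIP/KIP genes alone, and Cdkn1a with Cdkn1b and Cdkn2b, in 4 cells each. All 3 CIP/KIP genes were seen in 11 cells, 2 INK4 genes in 7, and 3 INK4 genes in 0.

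**Figure D2:**
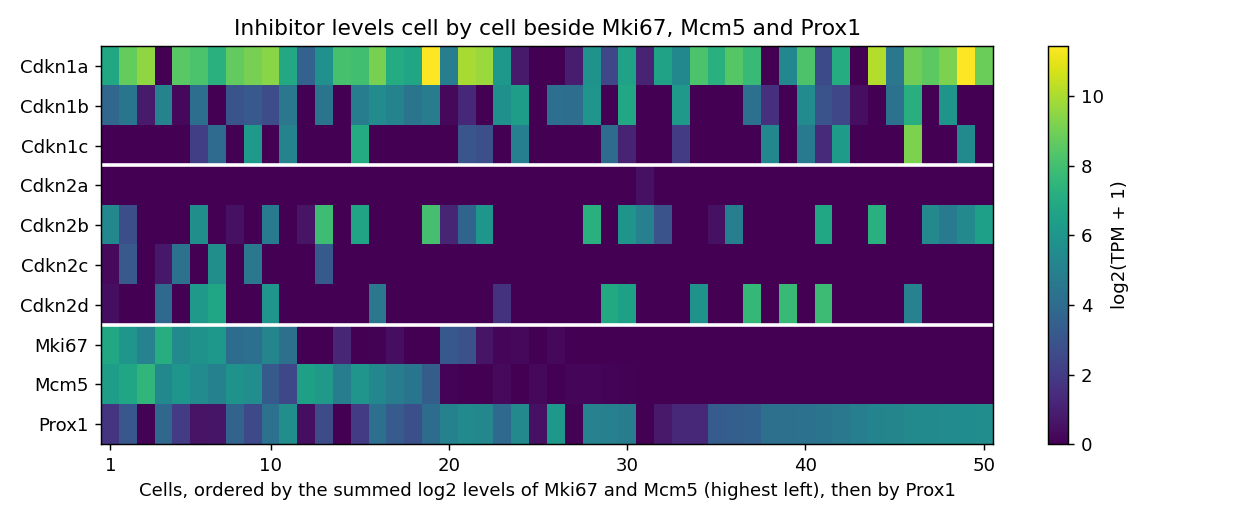
Levels as log2(TPM + 1) of the 7 inhibitors and of Mki67, Mcm5 and Prox1 (rows) in the 50 cells (columns), ordered by summed log2 Mki67 and Mcm5 levels from the left and then by Prox1. Cdkn1a is bright across the whole width, Cdkn2c appears only among cells with Mcm5 at the left, and Cdkn1c, Cdkn2b and Cdkn2d appear in scattered cells.

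The 7 cells without Cdkn1a mostly carried another inhibitor. Cdkn1b was seen in 5 of them, against 25 of the 43 cells with Cdkn1a, at 1.98, 16.2, 16.9, 33.3 and 82.0 TPM, Cdkn1c in 2 of these and Cdkn2d in 1, and Cdkn2b and Cdkn2c in 0. Of the 7, 5 had Prox1, and 1 had Mcm5 and Mki67. That cell had the highest Mki67 of the 50, at 137 TPM, with Mcm5 at 39.5, Cdkn1b at 33.3 and Cdkn2d at 13.9 TPM and Cdkn1a listed at 0. The 2 cells with no inhibitor were the cell with 1316 genes and a cell with 5971 genes, Prox1 at 28.97 TPM and Mki67 and Mcm5 listed at 0. The cell with the highest Cdkn1a, at 2762 TPM, also had the highest Cdkn2b, at 267 TPM, with Mcm5 at 9.25 TPM and Prox1 at 15.5 TPM. The next cell, level with it in Cdkn1a, had Cdkn1c at 42.9 TPM, Cdkn2b at 40.8 TPM, Prox1 at 45.5 TPM and neither Mki67 nor Mcm5.

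No pair of the 6 inhibitors seen excluded each other. Of their 15 pairs, each shared at least 1 cell, 6 were seen together in fewer cells than the product of their shares gives, 8 in more and 1 in the same number. The largest distance was 2.94 cells, for Cdkn1a with Cdkn2b, and Spearman's rho of log2(TPM + 1) over the 50 cells ran from -0.10 to 0.34 with a median of 0.03. Cdkn1a and Cdkn1b, the most frequent genes, met in 25 cells against a product of 25.8, with a rho of -0.07. Cdkn1b and Cdkn1c, which were highest in the same cell, met in 13 cells against 10.2, with a rho of 0.18. Cdkn2b and Cdkn2d, the INK4 genes seen most, met in 4 cells against 5.46, with a rho of -0.10. Cells of an index share chemistry and primers, and all share the TPM sum, so these values describe 50 cells and not independent samples.

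**Figure D3:**
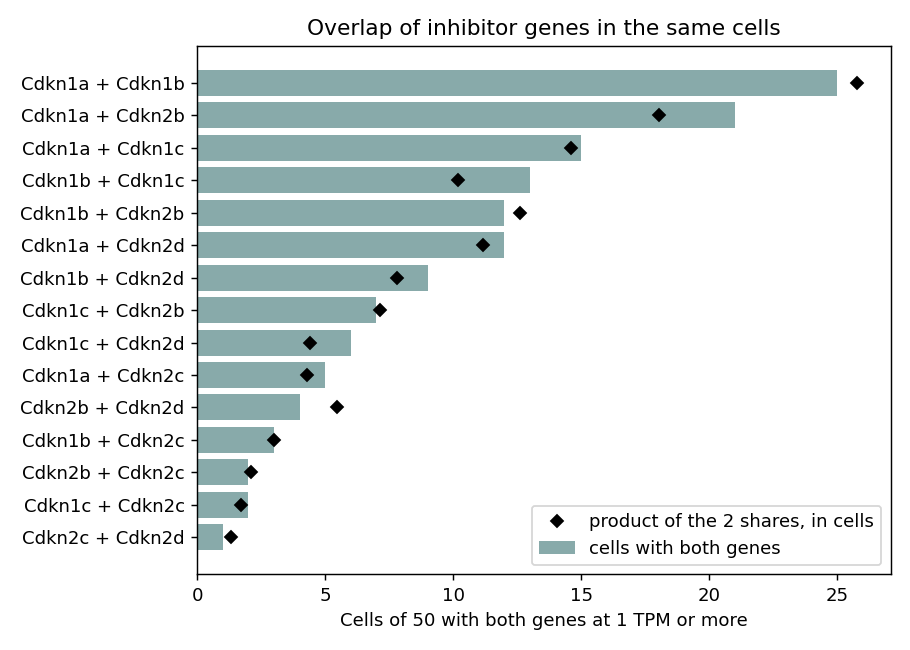
Number of cells of 50 in which both genes of a pair were at 1 TPM or more (bars) and the number that the product of their 2 shares gives (diamonds), for the 15 pairs of the 6 inhibitors seen. Bars end within 3 cells of their diamonds in every pair, and Cdkn1a with Cdkn2b, at 21 cells against 18.1, lies farthest out.

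Cdkn1a with Cdkn2b was the pair with the highest correlation. All 21 cells with Cdkn2b had Cdkn1a, the rho was 0.34 and Pearson's r 0.34, and r became 0.31 once the 2 cells most distant from the Cdkn1a median were dropped. Of all other genes, 3.11% had a rho of 0.3 or more with Cdkn1a. Within index groups the relation was uneven: rho was 0.45 among 32 cells with i7 indexes from N704 through N707, and 0.05 among 18 cells with N708 through N710. Cdkn2b was seen in 16 of the former and 5 of the latter cells, and Cdkn1c in 14 and 3, so the index group moved with the frequency of both, and its part was not tested.

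Cdkn1a was present in nearly all cells with proliferation genes and in most cells without. It was seen in 13 of the 14 cells with Mki67, with a median of 326 TPM, and in 30 of the 36 cells without, with a median of 102 TPM. The levels of the 2 sets of cells overlapped, from 0 to 983 TPM with Mki67 and from 0 to 2762 TPM without. Cells with Mcm5 had it in 18 of 19 cases at a median of 271 TPM, and cells without had it in 25 of 31 at a median of 94.1 TPM, again with overlap from 0 upward. The rho was 0.19 with Mki67 (0.09 and 0.40 in the 2 i7 groups) and 0.09 with Mcm5 (-0.02 and 0.40). Cells with Mki67 or Mcm5 had a median of 6303 genes seen and the others 5724. As partial correlations given the number of genes seen, the rho of Cdkn1a was 0.15 with Mki67 and 0.02 with Mcm5.

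Cdkn1b, too, was present on both sides. Of 14 cells with Mki67, 9 had it, as did 21 of 36 without, and it was seen in 14 of 19 cells with Mcm5 (median 16.6 TPM) and 16 of 31 without (median 1.51 TPM). Its rho was 0.09 with Mki67 and 0.18 with Mcm5, the latter 0.30 and -0.20 in the 2 i7 groups. Given the number of genes seen these fell to 0.00 and 0.08. Its highest level was 45.3 TPM in the 21 cells with Mki67 or Mcm5 and 141 TPM in the 29 cells with neither.

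Cdkn1c was seen in 6 of the 21 cells with Mki67 or Mcm5 and in 11 of the 29 with neither, shares of 28.6% (11.3% to 52.2%) and 37.9% (20.7% to 57.7%) whose intervals overlap. Its rho was -0.00 with Mki67 and -0.17 with Mcm5. The 29 cells with neither gene split by Prox1: Cdkn1c was seen in 10 of the 19 with Prox1 at or above its median over all cells, a share of 52.6% (28.9% to 75.6%), and in 1 of the 10 below it, at 2.93 TPM, a share of 10.0% (0.253% to 44.5%). Those intervals overlap as well, and the classes were drawn up with the values known.

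Cdkn2b and Cdkn2d had like shares in cycling and other cells. Cdkn2b was seen in 9 of 21 cells with Mki67 or Mcm5 and in 12 of 29 with neither, and its rho was -0.16 with Mki67 and -0.00 with Mcm5. Cdkn2d was seen in 5 of 21 and 8 of 29 cells, with a rho of 0.12 and 0.03. Given the number of genes seen, the rho with Mcm5 was -0.06 for Cdkn2b and -0.02 for Cdkn2d. For Cdkn2a the rho was -0.11 and -0.14, but both rest on the single cell at 0.43 TPM.

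Cdkn2c was found in cells with Mcm5. All 5 cells with Cdkn2c had Mcm5 and 4 of them had Mki67, and among the 29 cells with neither gene Cdkn2c was listed at 0 in every cell. Of the 19 cells with Mcm5 it was present in 5, a share of 26.3% (9.15% to 51.2%), and in 0 of 31 without, which an exact interval limits to 11.2%, so the intervals overlap and the difference was not tested. Of 401 other genes also seen in exactly 5 cells, 6.23% had all 5 with Mcm5 and 7.48% had at least 4 with Mki67, so other rare genes shared this placement.

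The 5 cells are few enough to be given singly. The cell with Cdkn2c at 49.8 TPM had Mki67 at 66.8, Mcm5 at 31.9, Cdkn1a at 154 and Cdkn2d at 107 TPM, with Prox1 at 0.58 TPM. The cell at 22.4 TPM had Mki67 at 16.9, Mcm5 at 47.5, Cdkn1a at 548 and Cdkn1c at 72.0 TPM, with Prox1 at 4.69 TPM. The cell at 18.1 TPM had Mki67 at 42.6, Mcm5 at 63.1, Cdkn1a at 360 and Prox1 at 2.92 TPM. All 5 carried Cdkn1a, and Prox1 was at or below 7.72 TPM in each, under its median of 14.7 TPM over all cells. The cell at 8.35 TPM was the only one of the 5 without Mki67, with Mcm5 at 70.5 and Cdkn2b at 236 TPM. The cell at 8.09 TPM had the most Mcm5 of the 5, at 109 TPM, with Mki67 at 61.5 and Cdkn1a at 427 TPM.

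Over all 50 cells the rho of Cdkn2c was 0.53 with Mcm5 (0.46 and 0.48 in the 2 i7 groups) and 0.52 with Mki67 (0.53 and 0.39). Pearson's r was 0.48 with Mcm5 and 0.49 with Mki67. Once the 2 cells with the highest Cdkn2c, the most distant from its median, were dropped, these were 0.46 and 0.38. The number of genes seen moved with these relations: its rho was 0.32 with Cdkn2c, 0.52 with Mcm5 and 0.40 with Mki67, and cells with Mcm5 had a median of 6325 genes seen against 5676 without. As partial correlations given the number of genes seen, the rho of Cdkn2c was 0.45 with Mcm5 and 0.45 with Mki67.

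**Figure D4:**
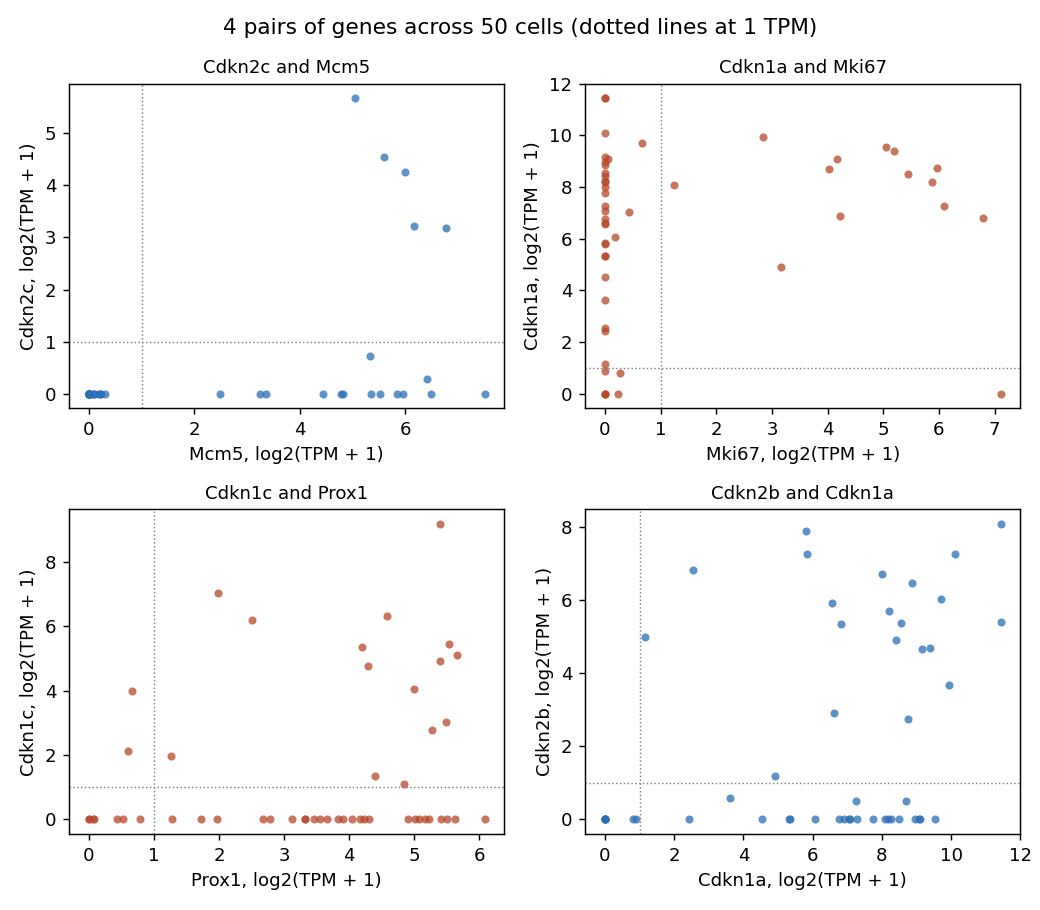
Levels as log2(TPM + 1) of 4 pairs of genes, with a point for each of 50 cells and dotted lines at 1 TPM. The 5 points above the line for Cdkn2c lie right of the line for Mcm5, Cdkn1a is high on both sides of the line for Mki67, and the 17 cells with Cdkn1c spread over the range of Prox1.

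Counting signs, 3 of the 7 inhibitors had a negative rho with each of Mki67, Mcm5 and Prox1. Each of these counts includes Cdkn2a, whose rho rests on a single cell at 0.43 TPM. They also include Cdkn1c with Mki67, at -0.0007, and Cdkn2b with Mcm5, at -0.0003. Of all genes seen in 20% of cells, 38.1% had a negative rho with Mki67, 40.9% with Mcm5 and 40.4% with Prox1, and the members' counts lie near these shares. Cdkn2a and Cdkn2c were themselves seen in fewer than 20% of cells, so the members and this background are not alike sets. The median rho of the 7 was 0.09 with Mki67, 0.03 with Mcm5 and 0.15 with Prox1, beside 0.05, 0.04 and 0.05 over all genes.

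Prox1 itself was seen in 41 cells. Cdkn1b was seen in 28 of these, a share of 68.3% (51.9% to 81.9%) with a median of 12.9 TPM, and in 2 of the 9 cells without Prox1, a share of 22.2% (2.81% to 60.0%) with a median of 0. The intervals overlap, the cells without Prox1 include both cells that stood apart, and the rho was 0.18 (0.13 and 0.43 in the 2 i7 groups). Cdkn1c was seen in 15 of 41 and 2 of 9 cells, with a rho of 0.25 that was 0.17 and 0.05 within the i7 groups and 0.22 and 0.31 within the lower (up to N505) and upper (from N506) i5 groups, which share 3 averaged cells. Cdkn1a was seen in 36 of 41 and 7 of 9 cells with a rho of 0.15, and Cdkn2b in 18 of 41 and 3 of 9 with a rho of 0.16. Cdkn2d was level, at 11 of 41 and 2 of 9 cells and a rho of -0.04.

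Cdkn2c had the lowest rho with Prox1 of the 6 genes seen, at -0.29, and was negative in every index group, at -0.31 and -0.13 by i7 and at -0.53 and -0.11 by i5. Pearson's r was -0.25, and -0.14 once the 2 cells with the highest Cdkn2c were dropped, so the relation rests in part on those cells. In 4 of its 5 cells Prox1 was still seen.

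The partners of the inhibitors in the cell cycle were widely present. Cdk4, the kinase that INK4 proteins bind, was seen in all 50 cells with a median of 934 TPM, and Cdk6 in 14 cells. Of its cyclins, Ccnd1 was seen in 40 cells, Ccnd3 in 34 and Ccnd2 in 24, and Cdk2 was seen in 29. Of the proteins that Cdk4 acts on, Rbl1 (p107) was seen in 36 cells and Rb1 in 10. Skp2, which with Cks1b marks p27 for destruction, was seen in 10 cells and Cks1b in 36.

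Replication and mitosis genes went with Cdkn2c as a whole. Of 21 S phase genes seen in 20% of cells, the rho with Cdkn2c was positive for all 21 and at least 0.3 for 17, with a median of 0.44 and a range from 0.14 for Gins2 to 0.66 for Uhrf1, which maintains DNA methylation at replication. Of 19 G2/M genes it was at least 0.3 for 18, with a median of 0.46 and a highest value of 0.66 for the mitotic kinase Aurkb. Among all genes, 57.6% were positive with Cdkn2c, 7.17% reached 0.3 and the median was 0.03. Of 13 cyclins and kinases 4 reached 0.3, led by the mitotic kinase Cdk1 at 0.58. They were Cdk1, Ccna2, Ccnb1 and Ccnb2, which are also members of the G2/M list counted above. Of 9 RB and E2F genes 4 reached 0.3, led by E2f2 at 0.42. Rbl1 was at 0.40 and Cks1b at 0.44. Genes of these lists rise and fall together, so their counts are not counts of separate relations.

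The other inhibitors had weaker relations to these lists. For Cdkn1a the rho was positive for all 21 S phase genes with a median of 0.14, from 0.00 for Hells to 0.34 for the helicase subunit Mcm7, where 62.2% of all genes were positive and the median was 0.04. For Cdkn1c it was negative for 17 of the 21 with a median of -0.10, lowest at -0.32 for the ribonucleotide reductase subunit Rrm2, where 45% of all genes were negative. For Cdkn2d, 18 of the 19 G2/M genes were positive with a median of 0.19, highest at 0.39 for Cks2, where 59.6% of all genes were positive and the median was 0.03. E2f2 was at 0.42 with Cdkn2d. For Cdkn1b and Cdkn2b the S phase medians were 0.07 and 0.00, equal or close to the medians of all genes, 0.07 and 0.01.

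**Figure D5:**
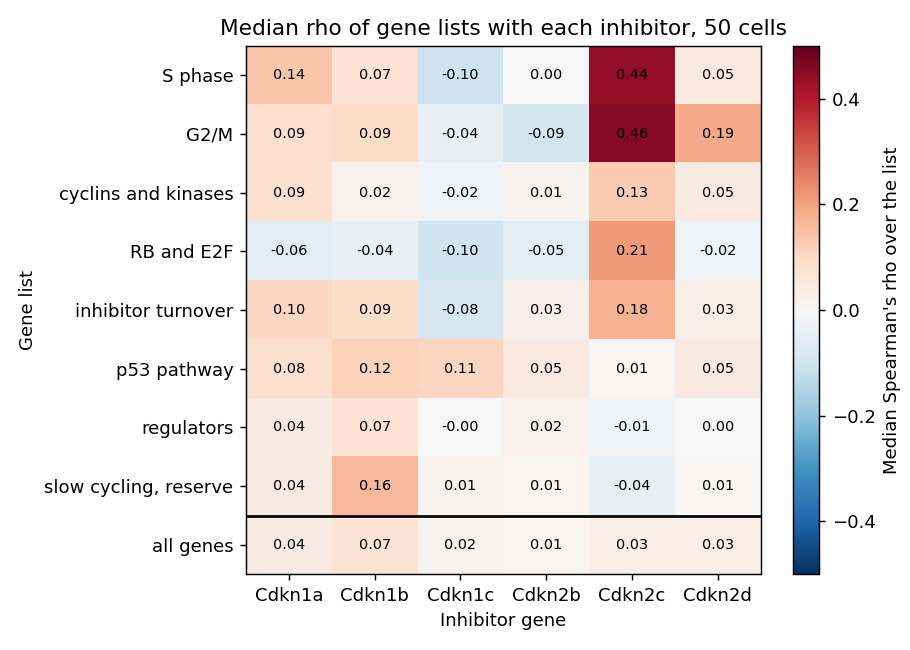
Median Spearman's rho over 50 cells between each inhibitor seen (columns) and the members of 8 gene lists seen in 20% of cells (rows), with the median of all genes in the bottom row. Cdkn2c has 0.44 and 0.46 with the S phase and G2/M lists, and every other value lies between -0.10 and 0.21.

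Among p53 pathway genes Trp53 was seen in 48 cells and Mdm2, the ligase that degrades p53 and is itself a p53 target, in 37. Of 19 such genes, 16 had a positive rho with Cdkn1a, with a median of 0.08, beside 62.2% and 0.04 over all genes. The other CIP/KIP genes had counts like it: 16 were positive with Cdkn1c, with a median of 0.11 beside 54.9% and 0.02 over all genes, and 15 with Cdkn1b, with a median of 0.12 beside 68.8% and 0.07. With Cdkn1a the highest was 0.43 for the apoptosis gene Bax and the lowest -0.12 for Trp53inp1, and Trp53 itself stood at 0.08. Cdkn1c had its highest value in this list, 0.38, with Phlda3, and Cdkn1b had 0.38 with Mdm4, an inhibitor of p53.

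Regulators and neighbours of the genes gave few values of 0.3 or more. Tbx3, a repressor of the Cdkn2a locus, was seen in 44 cells and had a rho of 0.45 with Cdkn2b, 0.32 with Cdkn1c and 0.31 with Cdkn1b, and it had 0.61 with Prox1. Foxo3 had 0.38 with Cdkn2d. In the wider imprinted region of chr7 around Cdkn1c, Slc22a18 had 0.34 with Cdkn1c, while Igf2 was seen in 0 cells and H19 in 2. The neighbours Klhl9 and Mtap had 0.25 and 0.15 with Cdkn2b. Of 12 slow-cycling genes, Cdkn1c among them, 7 were positive with Cdkn1a, with a median of 0.04, beside 62.2% and 0.04 over all genes. They ran from -0.37 for Btg1 to 0.32 for Ypel3. In the same list Ndrg1 had 0.36 with Cdkn1b and with Cdkn2d, Btg2 had 0.31 with Cdkn1c, Mex3a had -0.32 with Cdkn2b, and Cdkn2c ran from -0.36 with Ypel5 to 0.38 with Lrig1. Of 7 stem cell genes 6 were negative with Cdkn2b, with a median of -0.18 and the lowest value, -0.33, for Smoc2, where 47.6% of all genes were negative. Among them Ascl2 had 0.38 with Cdkn2c and -0.27 with Cdkn2b, and Prom1 had -0.39 with Cdkn1c.

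The genes most like each inhibitor were taken among those seen in 20% of cells whose rho did not differ in sign between the i7 groups, which left 4323 to 4802 of 9165 genes. For Cdkn1a they were Vps41 (0.56), Arfgap2 (0.53) and Mrpl49 (0.53), with Ccdc28b (-0.43), Abcb9 (-0.42) and Sfswap (-0.41) lowest. For Cdkn1b they were Nprl2 (0.70), Aim2 (0.55) and Pak4 (0.52), with Ptgr1 (-0.49), Tnni1 (-0.42) and Rps6ka4 (-0.41) lowest. For Cdkn1c they were Meaf6 (0.50), Tmsb15b1 (0.50) and G6pc3 (0.49), with Ppp1r8 (-0.52), Xpo6 (-0.49) and Usf2 (-0.48) lowest. The rho of Nprl2, a GATOR1 subunit, with Cdkn1b was the highest of all. For Cdkn2b they were Ank3 (0.53), Pgpep1 (0.52) and Ccdc66 (0.50), with AI506816 (-0.51), Nr1i2 (-0.48) and Tmem161a (-0.46) lowest. For Cdkn2d they were Ubxn2b, Atmin and Trim59 (0.52 each), with Slc35f2 (-0.47), Ociad1 (-0.47) and Gm10416 (-0.43) lowest. These are the extremes of many values over 50 cells that share a mouse and a TPM sum.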

How the data were processed

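Single sorted cells were profiled by RNA-seq in 56 libraries of 1 mouse. The deposited values were TPM for 24410 Ensembl genes in each library, made by the authors. They used Bowtie2 2.2.9, RSEM 1.2.31, bcl2fastq 1.8.4 and the mouse build GRCm38.p4, per the submitters' processing notes. Settings, annotation release and use of strand were not given in the sources at hand. Depth was unknown, since TPM do not keep it, and TPM move with any gene that takes a large share of a library. Symbols and coordinates came from GENCODE M21.

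Library pairs with Pearson's r above 0.9 on log2(TPM + 1) were averaged, which gave 50 cells. A gene was seen at 1 TPM or more. Shares have exact Clopper-Pearson intervals at 95%. Relations are Spearman's rho on log2(TPM + 1) and were repeated within i7 and i5 index groups. The labels give 1 group, so no test between groups was made.

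The 7 members, the gene lists and the classes were chosen with earlier results of these data known, and the p53 half-site was added to the motif search after the sequences were seen. Genes named were the members, Mki67, Mcm5 and Prox1, for each member seen in 20% of cells the 3 genes highest and lowest by rho with the same sign in both i7 groups, and from each list its most frequent members and those highest and lowest by rho. Others were named after their values were seen, among them Skp2, Cdk6, Rb1, Igf2, H19 and Dmrta1.

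Alternatives were detection above 0 or at 10 TPM, a pseudocount of 0.1 or 10, partial rho given genes per cell, Pearson's r, a filter at 40% of cells, the 56 libraries unaveraged, rescaling without Gm10925 and ribosomal protein genes, and leaving out the cell with the fewest genes or each of 8 i5 indexes. Leaving out the averaged cells and the cell with the highest Defa24 was added after the data were seen. The correlation script was tested on simulated data with 9166 genes, in which 100 of 100 genes planted to follow Prox1 and 100 of 100 planted to oppose it passed 0.3 in size, as did 3.51% of the others. Scripts used SciPy 1.17.1, pandas 2.3.3, numpy 2.4.6 and matplotlib 3.10.9 under Python 3.11.15.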

Additional observations from a re-analysis of the deposited data

How the results depend on the processing

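Over 19 alternatives, 5 of the 7 genes were seen in at least 20% of cells under every setting run, and the median number of inhibitors per cell was 2 to 3. The count of inhibitors with a negative rho was 2 to 4 with Mki67 and with Mcm5 and 2 to 3 with Prox1. The count of pairs seen together less often than the product of their shares changed with the setting. It was 6, rose to 11 with detection above 0 TPM and fell to 3 without the cells of i5 index N517. Above 0 TPM Cdkn2a enters the count through a single cell, at 0.43 TPM. That cell had Cdkn1b, Cdkn1c, Cdkn2c and Cdkn2d at 0, so the pairs of Cdkn2a with these genes had to fall below the product. The rise to 11 thus rests in part on that cell. Of the 21 relations of inhibitors to Mki67, Mcm5 and Prox1, 16 kept 1 sign. Those that did not were Cdkn1b and Cdkn1c with Mki67, Cdkn2b and Cdkn2d with Mcm5, and Cdkn2d with Prox1. The 16 include the relations of Cdkn2a, whose signs rest on its single cell above 0. Without i5 index N508, which that cell carries, Cdkn2a gave no rho. Of 371 recomputed rho values 0 moved by more than 0.15. Those under another pseudocount could not move, because a pseudocount leaves the ranks unchanged. They therefore add nothing to this count or to the count of kept signs. Settings that leave out a single cell could hardly move a value that far. The rho values within index groups, given above, were not among the 371. The rho of Cdkn2c was 0.45 to 0.59 with Mcm5, 0.45 to 0.61 with Mki67 and -0.39 to -0.22 with Prox1, and that of Cdkn1a with Cdkn2b was 0.27 to 0.38. All Cdkn2c cells had Mcm5 under every setting, and 88.9% to 100% of Cdkn2b cells had Cdkn1a. With the filter at 40% of cells the 3 genes most like Cdkn1b were again Nprl2, Aim2 and Pak4, while Arfgap2, Mrpl49 and Pik3c2b led for Cdkn1a and Pgpep1, Fdps and Pdia6 for Cdkn2b. No paired analysis was possible because the labels give a single group. Depth was unknown, so a gene listed at 0 may have been missed in any cell, and 5 cells carry every statement on Cdkn2c.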
